A study of Mus musculus with 141 samples.

Results

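The nuclear genes for 10 subunits of cytochrome c oxidase were followed through liver, lung and kidney of Collaborative Cross mice, which are recombinant inbred strains bred from several founder strains. The forms found in most tissues were *Cox4i1*, *Cox5a*, *Cox5b*, *Cox6a1*, *Cox7a2* and *Cox7c*. The forms known for a restricted distribution were *Cox4i2*, *Cox6a2*, *Cox7a1* and *Cox8b*. The genes were chosen by name, and all 10 were present among the 24423 genes of the files.

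Cytochrome c oxidase is complex IV of the respiratory chain: it passes electrons from cytochrome c to oxygen and pumps protons across the inner mitochondrial membrane. Its catalytic core is made of subunits encoded in mitochondrial DNA, and the nuclear subunits surround that core and adjust its activity. Several nuclear subunits exist as isoforms from separate genes. *Cox6a2*, *Cox7a1* and *Cox8b* are known as the heart and skeletal muscle forms, the latter pair also from brown fat, and *Cox4i2* is known as the lung form, found in the walls of pulmonary vessels.

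The libraries came from 47 strains, with 1 male mouse for each strain and a liver, a lung and a kidney from each mouse, which gave 141 libraries in 3 groups of 47. The mice were 8 to 12 weeks old and had all breathed filtered air in exposure chambers for 6 hours a day over 2 weeks. The labels give no other treatment, so the comparisons were between tissues and between strains. Because a strain was a single mouse, differences between strains and differences between mice cannot be told apart. Total counts ran from 1738046 to 42158454 in liver, from 2829104 to 17585682 in lung and from 3046695 to 15028553 in kidney. Levels are given below as TPM (a level per transcript length, as deposited) where genes are compared with each other, and as CPM (counts scaled to library size) after TMM (a normalization that sets aside the few dominant genes of a tissue) where libraries are compared.

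Marker genes followed the tissue labels. The summed level of 8 hepatocyte genes was between 68600 and 198000 CPM in liver and at most 751 CPM in lung and 3800 CPM in kidney. The 8 lung epithelium genes summed to at least 7250 CPM in lung against at most 199 CPM in liver and 120 CPM in kidney. The 8 kidney tubule genes summed to at least 11800 CPM in kidney against at most 1070 CPM in liver and 422 CPM in lung. The factor by which TMM rescaled a library ranged from 0.12 to 1.05 in liver, from 0.24 to 2.56 in lung and from 0.35 to 1.98 in kidney, so the choice of scale moved many values and both scales are shown where they differ.

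Among the common subunits, *Cox5a*, *Cox5b*, *Cox6a1* and *Cox7a2* were abundant in every library. *Cox6a1*, a small subunit at the edge of the enzyme, had a lowest, median and highest level of 211, 598 and 944 TPM in liver, 63.4, 335 and 564 TPM in lung, and 750, 1251 and 2495 TPM in kidney. By TPM kidneys were highest by median, lungs were lowest, and no kidney was below its own liver or lung. By CPM after TMM, the liver was above the kidney of the same mouse in 15 of 47 mice. *Cox5b*, a subunit on the matrix side, had medians of 472 TPM in liver, 220.5 TPM in lung and 992 TPM in kidney. *Cox5a*, the other matrix-side subunit, had medians of 284 TPM in liver, 131 TPM in lung and 577 TPM in kidney, and *Cox7a2*, a subunit with a single membrane span, had 306, 172 and 723.5 TPM. The order of these 4 genes was the same in all tissues by median: *Cox6a1* first, then *Cox5b*, *Cox7a2* and *Cox5a*.

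In kidney each step of the order by TPM was larger than the spread of the step over mice. The smallest mean step was *Cox7a2* over *Cox5a*, by 0.30 ± 0.23 (SD, n = 47) on the log2(TPM + 1) scale. In lung each step was likewise larger than its spread. In liver *Cox7a2* was above *Cox5a* in 33 of 47 mice, by 0.12 ± 0.23 (SD, n = 47) on the same scale, so this pair did not differ beyond its spread. *Cox8a*, the common partner of *Cox8b*, stood beside *Cox6a1* at the top of the TPM order. Its medians were 533 TPM in liver, 361 TPM in lung and 1530 TPM in kidney.

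*Cox4i1* and *Cox7c* lay far below the other common subunits. *Cox4i1*, the large structural subunit IV through which ATP is known to slow the enzyme, had medians of 8.37 TPM in liver, 5.07 TPM in lung and 18.8 TPM in kidney, with medians of 23, 11 and 40 counts. *Cox7c*, a small membrane-spanning subunit, had medians of 22.95 TPM in liver, 13.4 TPM in lung and 37.8 TPM in kidney, but single mice reached 603, 192 and 672 TPM while others had no count. How reads can be assigned to these 2 genes is described with the sequences below, and its part in their levels was not tested.

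**Figure D1:**
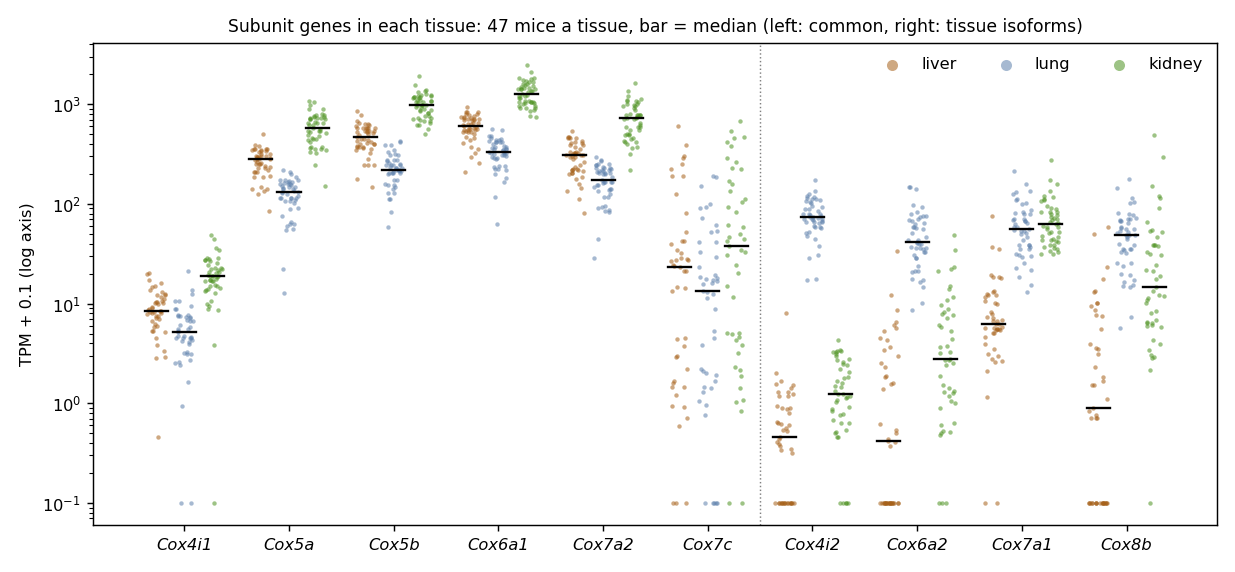
Levels of the 10 genes in TPM + 0.1 on a log axis, 1 point for each of 47 mice in liver, lung and kidney, with black bars for medians and points at 0.1 for libraries with no count. *Cox5a*, *Cox5b*, *Cox6a1* and *Cox7a2* form narrow bands with the kidney median highest on this TPM scale. *Cox7c* spreads from no count to 672 TPM, and *Cox4i2* is high in lung, where its lowest library has 17.3 TPM.

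Which subunits differed between tissues was tested with limma-voom in 12127 genes, with strain as a block, and a gene was called at an adjusted p of at most 0.1 and a log2 fold change of at least 1 in size. All 6 common subunits were higher in liver than in lung, where 23.9% of all genes tested were called in that direction. Their log2 fold changes lay between 2.22 for *Cox4i1* and 2.61 for *Cox5a*, with a median of 2.40 against -0.06 over all genes, and the highest adjusted p was 2.91e-32 for *Cox7c*. Every liver was above every lung in CPM for *Cox5a*, *Cox5b*, *Cox6a1* and *Cox7a2*. *Cox7c* was uneven: it was higher in liver than in the lung of the same mouse in 39 of 47 mice by CPM. It had no more than 3 counts in 12 livers and 17 lungs. The SE of its fold change was 0.14 with strain as a block and 0.63 without. All 6 were also higher in kidney than in lung, with log2 fold changes of lung minus kidney between -2.78 and -2.36, where 20.6% of all genes were called higher in kidney. Again every kidney was above every lung for the same 4 genes. In bulk tissue, fewer cells of a type and less RNA per cell cannot be told apart.

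Between liver and kidney none of the 6 common subunits was called in either direction, where 15.6% of all genes were called higher in liver and 20.8% higher in kidney. At an adjusted p of at most 0.1 alone, 4 of them were lower in liver: *Cox5a*, *Cox5b*, *Cox6a1* and *Cox7a2*, with log2 fold changes of liver minus kidney between -0.33 and -0.14, where 44% of all genes were lower in liver by the same rule. *Cox4i1* at -0.14 ± 0.11 (SE) had an adjusted p of 0.248 and *Cox7c* at 0.03 ± 0.13 (SE) an adjusted p of 0.858.

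These sizes depended on the scale. Scaling by total counts instead of TMM moved the median of all genes by -1.37 for liver minus lung, by -0.95 for liver minus kidney and by 0.42 for lung minus kidney on the log2 scale. On that scale the common subunits were 0.86 to 1.29 higher in liver than in lung, with 2 of 6 called against 9.78% of all genes. They were 0.89 to 1.26 lower in liver than in kidney, with 5 of 6 called against 47.8% of all genes. Relative to the median of all genes they were 2.30 to 2.72 above it for liver minus lung on the total-count scale and 2.27 to 2.66 above it on the TMM scale. For liver minus kidney the same distances were -0.31 to 0.07 and -0.33 to 0.03. The 5 common subunits other than *Cox7c* kept their direction in all 3 comparisons on both scales, whereas *Cox7c* changed sign between liver and kidney.

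**Figure D2:**
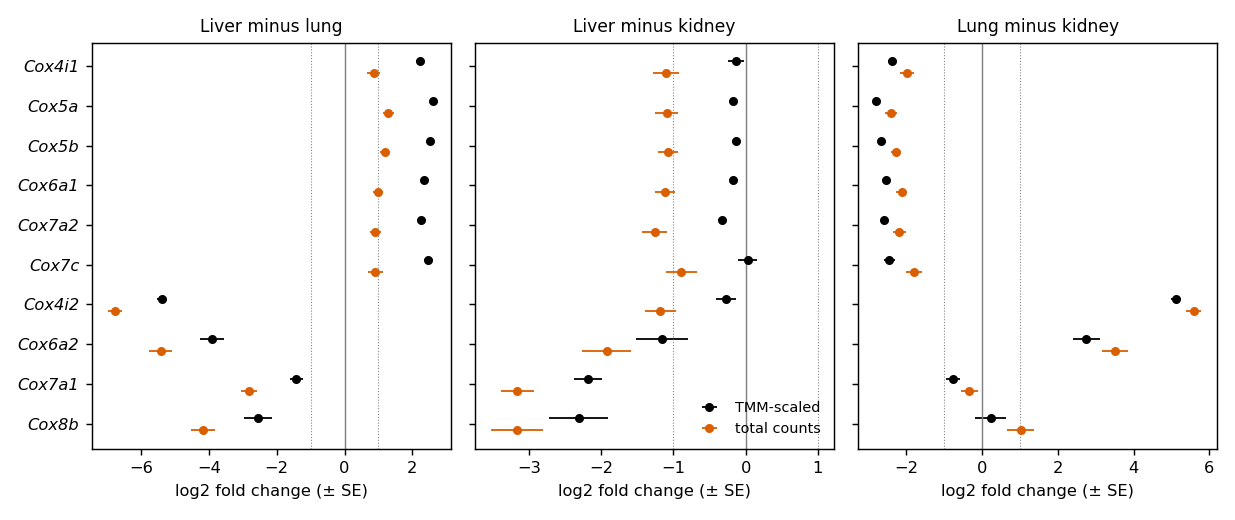
Log2 fold change with its SE for each gene in the 3 tissue comparisons, in black with TMM scaling and in orange with total counts; dotted lines mark a log2 fold change of 1 in size. The common subunits sit between 2.22 and 2.61 for liver minus lung and near 0 for liver minus kidney with TMM, and the orange points are displaced together.

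Of 9 further subunit genes in the files, 6 were tested, and all 6 were higher in liver than in lung, with a median log2 fold change of 2.19, where 23.9% of all genes were called. The largest were *Cox7b*, a membrane-spanning subunit, at 2.76, *Ndufa4*, the subunit long counted with complex I, at 2.63, and *Cox6b1*, which joins the monomers of the dimer, at 2.28. For lung minus kidney 5 of the 6 were called, all higher in kidney, where 20.6% of all genes were called, and *Cox7a2l* at -0.76 was not. The largest were *Ndufa4* at -2.77, *Cox8a* at -2.72 and *Cox7b* at -2.58. None of the 6 was called between liver and kidney, where the largest differences were 0.645 for *Cox7a2l*, -0.64 for *Cox8a* and -0.32 for *Cox6c*. The subunits encoded in mitochondrial DNA were not analysed here.

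Of 26 assembly factors in the files, 21 were tested. Of these, 18 were higher in liver than in lung, where 23.9% of all genes were called in that direction. They were led by *Lrpprc*, which stabilises mitochondrial mRNAs, at 2.62, *Taco1*, which promotes translation of the first core subunit, at 2.40, and *Coa6*, which helps deliver copper, at 2.15. For lung minus kidney 17 of the 21 were higher in kidney, where 20.6% of all genes were called. They were led by *Coa6* at -2.48, *Higd2a* at -2.22 and *Lrpprc* at -2.18. None was called between liver and kidney, where 15.6% of all genes were called higher in liver and 20.8% higher in kidney. *Higd1a* at 0.81, *Coa7* at 0.77 and *Cox15* at -0.75 differed most there. Among genes of mitochondrial biogenesis, 6 of 10 were tested, and 5 of them were higher in liver than in lung, against 23.9% of all genes. Among the 5 were *Cycs*, the electron donor of the enzyme, at 2.40, *Ppargc1b*, a transcriptional coactivator, at 2.23 and *Tfam*, which packs mitochondrial DNA, at 1.81. In the comparison of lung with kidney 5 were higher in kidney, against 20.6% of all genes. Of these, *Cycs* was at -3.59, *Ppargc1b* at -2.40 and *Esrra*, a nuclear receptor, at -2.30 for lung minus kidney. Against liver 2 of the 6 were higher in kidney, where 20.8% of all genes were called in that direction. These were *Cycs* at -1.19 and *Esrra* at -1.12 for liver minus kidney, while *Gabpa* differed by 0.61 and was not called.

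The restricted isoforms followed another order. All 4 were higher in lung than in liver, where 31% of all genes were called in that direction. Of them *Cox6a2*, *Cox7a1* and *Cox8b* were higher in kidney than in liver, where 20.8% of all genes were called, and 2, *Cox4i2* and *Cox6a2*, were higher in lung than in kidney, where 25.5% of all genes were called. No read of 50 bases can match both members of an isoform pair exactly: the longest run shared by the 2 transcripts of a pair was 14 bases for *Cox4i2* and *Cox4i1*, 12 bases for *Cox6a2* and *Cox6a1*, 12 bases for *Cox7a1* and *Cox7a2*, and 10 bases for *Cox8b* and *Cox8a*. The restricted isoforms lie at chr2:152579909-152590773 on the forward strand (*Cox4i2*), chr7:135348950-135349880 on the reverse strand (*Cox6a2*), chr7:30969190-30971047 on the forward strand (*Cox7a1*) and chr7:148084842-148086345 on the reverse strand (*Cox8b*) of NCBIM37. The shared runs lie in the coding exons and are shown 5′ to 3′ in capitals with up to 20 bases on either side, since they are the places where the isoforms are most alike.
Cox4i2: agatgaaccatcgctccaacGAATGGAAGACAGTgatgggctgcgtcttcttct
Cox4i1: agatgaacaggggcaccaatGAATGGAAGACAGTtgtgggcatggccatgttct
Cox6a2: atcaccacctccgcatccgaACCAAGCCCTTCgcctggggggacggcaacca
Cox6a1: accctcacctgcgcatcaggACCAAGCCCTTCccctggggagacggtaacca
Cox7a1: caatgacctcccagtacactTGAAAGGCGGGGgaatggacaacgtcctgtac
Cox7a2: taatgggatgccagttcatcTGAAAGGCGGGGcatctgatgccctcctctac
Cox8b: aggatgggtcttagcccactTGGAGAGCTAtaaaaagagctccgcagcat
Cox8a: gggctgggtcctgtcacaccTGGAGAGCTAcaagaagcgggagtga

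*Cox4i2* was a lung gene in these mice. It had a lowest, median and highest level of 17.3, 73.6 and 172 TPM in lung, with at least 26 counts in each library. In liver the corresponding levels were 0, 0.36 and 7.90 TPM, and 38 of 47 livers had at most 3 counts. In kidney they were 0, 1.13 and 4.26 TPM, and 31 of 47 kidneys had at most 3 counts. Every lung was above every liver and every kidney in CPM. The log2 fold change was -5.39 ± 0.13 (SE) for liver minus lung and 5.12 ± 0.13 (SE) for lung minus kidney, with adjusted p of 2.85e-61 and 8.31e-60. With so few counts outside lung, the size of these folds depends on the small count added to each value before taking logs. Liver and kidney differed by -0.27 ± 0.14 (SE), which was not called at an adjusted p of 0.059. In lung *Cox4i2* ranked after *Cox8a* and the 4 abundant common subunits, and it stood above *Cox7a1* in 31 of 47 lungs, a difference of 0.38 ± 0.82 (SD, n = 47) on the log2(TPM + 1) scale that was within its spread.

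*Cox6a2*, the muscle form of subunit VIa, was present in every lung, with a lowest, median and highest level of 8.56, 41.7 and 148 TPM. In liver the levels were 0, 0.32 and 33.2 TPM, and 31 of 47 livers had at most 3 counts. In kidney they were 0, 2.67 and 48.9 TPM, and 21 of 47 kidneys had at most 3 counts. It was higher in lung than in the liver of the same mouse in 46 of 47 mice and higher in lung than in the kidney in 46 of 47, the exceptions being 1 liver and 1 kidney. The log2 fold change was -3.91 ± 0.36 (SE) for liver minus lung, 2.75 ± 0.36 (SE) for lung minus kidney and -1.16 ± 0.36 (SE) for liver minus kidney, with adjusted p of 2.77e-18, 1.53e-11 and 0.00232. The last of these calls was lost, for a size below the fold required, with edgeR's quasi-likelihood test, at -0.75, and in a fit of liver and kidney alone, at -0.93.

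*Cox7a1*, the muscle form of subunit VIIa, was the one restricted isoform with counts in every kidney. It had a lowest, median and highest level of 12.8, 55.8 and 214 TPM in lung and of 31.4, 63.0 and 275 TPM in kidney, and of 0, 6.12 and 76.3 TPM in liver. Lung and kidney overlapped widely. The log2 fold change was -1.42 ± 0.19 (SE) for liver minus lung and -2.18 ± 0.19 (SE) for liver minus kidney, with adjusted p of 7.82e-11 and 3.99e-19. Lung minus kidney was -0.76 ± 0.19 (SE), an adjusted p of 1.4e-04 at a size below the fold required.

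*Cox8b*, the form of subunit VIII known from heart and brown fat, had a lowest, median and highest level of 5.56, 48.4 and 177 TPM in lung, 0, 14.5 and 488 TPM in kidney, and 0, 0.79 and 58.3 TPM in liver. Its highest library of all was a kidney, although the median kidney was below the median lung. The log2 fold change was -2.54 ± 0.41 (SE) for liver minus lung and -2.31 ± 0.41 (SE) for liver minus kidney, with adjusted p of 2.21e-08 and 3.12e-07. Lung minus kidney was 0.23 ± 0.41 (SE) at an adjusted p of 0.596, and the direction turned, to -0.09, in a fit of lung and kidney alone. It was called higher in lung with total counts, at 1.02, and on the log2(TPM + 1) scale, at 1.22.

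Set against their common partners, the restricted isoforms were a minor part of the pair in most libraries. The share of *Cox6a2* in the TPM of *Cox6a2* and *Cox6a1* was 0.438% ± 1.28 in livers, 13% ± 5.97 in lung and 0.481% ± 0.64 in kidney (SD, n = 47). The share of *Cox7a1* in its pair was 3.49% ± 4.62 in livers, 26.1% ± 9.25 in lung and 9.40% ± 4.49 in kidney (SD, n = 47). The share of *Cox8b* in its pair was 1.13% ± 2.77 in livers, 12.7% ± 6.85 in lung and 2.45% ± 4.04 in kidney (SD, n = 47). For these pairs the lung share was above the liver share in 46, 46 and 45 of 47 mice and above the kidney share in 47, 45 and 45 of 47 mice. Each of those differences had p = 1e-05 in a two-sided permutation test that flipped the sign of each mouse's difference, the smallest p the 100000 permutations can give.

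In 1 lung, that of strain CC059, *Cox7a1* was above its common partner and made 57.2% of the pair. Liver and kidney differed for *Cox7a1*, by -5.91 ± 6.60 percentage points (SD, n = 47, permutation p = 1e-05), with kidney higher in 43 of 47 mice. The difference for *Cox6a2* was -0.0434 ± 1.5 percentage points (SD, n = 47, permutation p = 0.903, adjusted p = 0.903). For *Cox8b* it was -1.32 ± 5.03 percentage points (SD, n = 47, permutation p = 0.079, adjusted p = 0.0948), with kidney higher in 35 of 47 mice. The strains CC031 and CC006 had the most *Cox8b* in liver, and CC059 and CC038 had the most in kidney. With these strains left out, which was not planned, the *Cox8b* difference between liver and kidney was -1.19 percentage points (permutation p = 5.2e-04). Because the strains left out hold the extremes of the gene tested, that p cannot decide the difference.

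For *Cox4i2* the share was 93.0% ± 3.65 in lung (SD, n = 47), and every lung had at least 84.1%. It was 6.49% ± 8.15 in liver (SD, n = 47) and 6.96% ± 5.09 in kidney (SD, n = 46, since 1 kidney had no count of either gene). The difference between lung and each other tissue had p = 1e-05 in the same permutation test, the smallest possible, and that between liver and kidney had a permutation p of 0.826. These shares rest on the few counts of *Cox4i1* and are shares of assigned reads, not a ratio of the 2 subunits. Adjusted over these 12 share comparisons, the 9 tests at the smallest p had an adjusted p of 1.33e-05.

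**Figure D3:**
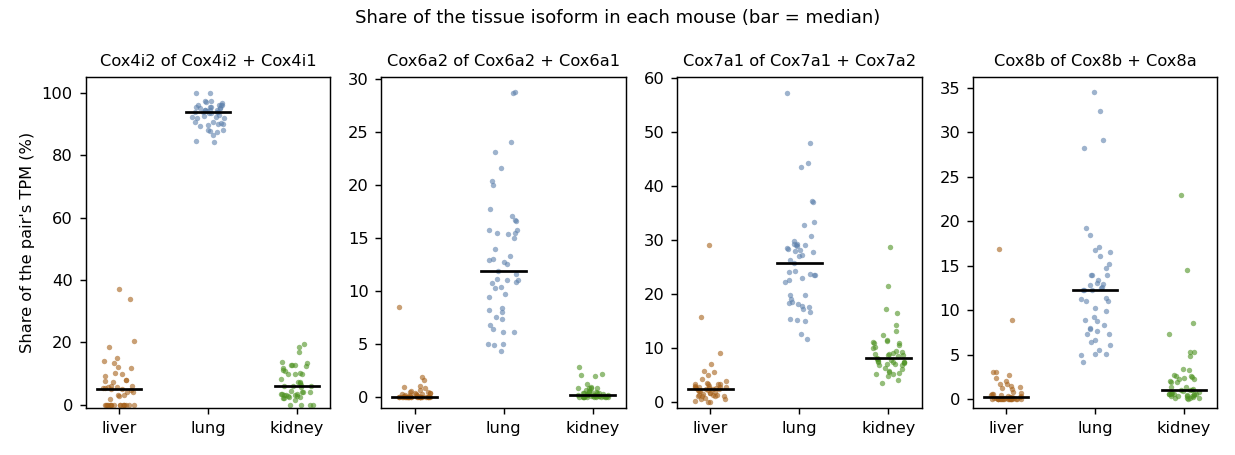
Share of the restricted isoform in the TPM of its pair, in percent, 1 point for each mouse with black bars for medians; the panels have their own vertical axes. Lung stands above liver and kidney in every panel, from a median of 11.9% for *Cox6a2* to 93.9% for *Cox4i2*, and single livers and kidneys reach 29.1% and 28.7% for *Cox7a1*.

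The region around the start site also set the pairs apart where it was at hand, for 7 of the 10 genes and *Cox8a* in RefSeq (GRCm38.p6). The dinucleotide CG occurred 14 to 35 times in the 300 bases around the start of the 5 common genes matched, 7 times for *Cox7a1* and 2 times for *Cox8b*. Over all 32851 such regions the median was 7, and 36.3% held 14 or more while 23.3% held 2 or fewer. The pairs of *Cox8b* and of *Cox7a1* are shown 5′ to 3′ from 250 bases before to 50 bases after the start, with each CG in capitals. *Cox8b* lies at chr7:140900397-140900696 on the reverse strand, *Cox8a* at chr19:7217567-7217866 on the reverse strand, *Cox7a1* at chr7:30183921-30184220 on the forward strand and *Cox7a2* at chr9:79759804-79760103 on the reverse strand.
Cox8b: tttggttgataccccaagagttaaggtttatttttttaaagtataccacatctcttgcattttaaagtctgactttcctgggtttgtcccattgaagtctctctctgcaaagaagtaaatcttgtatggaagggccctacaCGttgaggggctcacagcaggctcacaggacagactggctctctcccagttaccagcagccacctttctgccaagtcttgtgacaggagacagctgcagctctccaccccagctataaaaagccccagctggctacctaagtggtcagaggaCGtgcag
Cox8a: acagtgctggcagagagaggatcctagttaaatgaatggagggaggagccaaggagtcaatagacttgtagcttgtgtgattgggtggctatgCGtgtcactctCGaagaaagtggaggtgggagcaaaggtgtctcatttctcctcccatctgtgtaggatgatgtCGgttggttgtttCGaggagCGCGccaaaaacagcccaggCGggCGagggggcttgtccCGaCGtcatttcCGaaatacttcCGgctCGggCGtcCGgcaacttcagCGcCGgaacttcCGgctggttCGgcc
Cox7a1: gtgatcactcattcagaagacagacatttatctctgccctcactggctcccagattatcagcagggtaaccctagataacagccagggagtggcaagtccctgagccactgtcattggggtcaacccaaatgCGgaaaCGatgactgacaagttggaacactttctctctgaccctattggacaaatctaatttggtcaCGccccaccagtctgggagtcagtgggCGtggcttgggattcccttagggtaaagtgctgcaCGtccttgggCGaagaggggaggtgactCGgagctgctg
Cox7a2: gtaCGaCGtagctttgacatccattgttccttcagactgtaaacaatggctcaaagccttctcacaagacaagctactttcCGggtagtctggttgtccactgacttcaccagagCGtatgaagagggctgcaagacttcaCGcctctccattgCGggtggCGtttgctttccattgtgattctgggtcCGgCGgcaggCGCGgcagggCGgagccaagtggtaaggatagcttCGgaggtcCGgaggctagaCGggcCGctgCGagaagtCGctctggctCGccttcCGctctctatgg

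A set of 7 motifs was searched on both strands. CANNTG, the E-box letters, was found in 5 of the 7 matched members and in 72.3% of all regions. Its form CAGCTG, known from muscle regulators, was found in *Cox8b* alone among them, at 19 to 14 bases before and 16 to 21 bases after the start, and in 16.3% of all regions; these places count for CANNTG as well. CCGGAAG, the letters of the ETS family, was found in *Cox6a1*, and in *Cox8a* at 2 places, against 8.86% of all regions. AAGGTCA (4.72% of all regions), GCCATNTT (6.05%), the MEF2 motif (1.86%) and the CArG motif (1.63%) were in none of the 7.

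Because the restricted isoforms are known from muscle and fat, their levels were set beside marker lists of those cells within each tissue. Across the 10 genes, 3 tissues and 7 lists this made 210 rank correlations over 47 mice, with p-values from 100000 permutations adjusted over all 12127 genes of a tissue. By rho, 19 passed an adjusted p of 0.1, 16 of them for restricted isoforms. The other 3 were in lung: *Cox5a* with the cardiac list (rho of 0.488, adjusted p of 0.0293) and the skeletal muscle list (rho of 0.444, adjusted p of 0.0744), and *Cox5b* with the skeletal muscle list (rho of 0.49, adjusted p of 0.0279). Lungs held cardiac muscle genes: 14 of the 18 listed genes had a median above 3 counts, and *Csrp3*, a muscle LIM protein, had a median of 0 CPM. *Myl7*, the atrial light chain, had a lowest, median and highest level of 8.11, 54.1 and 162 CPM, *Actc1*, cardiac actin, 31.6, 86.0 and 260 CPM, and *Tnni3*, cardiac troponin I, 7.69, 28.1 and 95 CPM. The list summed to between 180 and 1230 CPM in lung, with a median of 429 CPM against 7.11 CPM in liver and 13.3 CPM in kidney.

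*Cox8b*, *Cox7a1* and *Cox6a2* rose and fell with that list over the lungs. Spearman's rho was 0.819 for *Cox8b*, 0.784 for *Cox7a1* and 0.717 for *Cox6a2*, and Pearson's r was 0.815, 0.762 and 0.723, each with a permutation p of 1e-05 and adjusted p of at most 0.00115. Of all genes, 3.60% passed with this list in lung. Without the lungs of CC024 and CC029, the farthest from the median of the list, r was 0.815, 0.779 and 0.703. *Cox8b* and *Cox6a2* also passed with the skeletal muscle list in lung, with rho of 0.543 and 0.529, where 2.89% of all genes passed, and *Cox7a1* and *Cox8b* with the smooth muscle list, with rho of 0.552 and 0.492, where 1.57% of all genes passed. *Cox4i2* showed rho of -0.0363 with the cardiac list. No member passed by rho with the brown fat list over lungs. There *Cox7a1* had rho of 0.41 and r of 0.511 (adjusted p of 0.398 and 0.0774), and r was 0.384 without CC017 and CC059. *Cox8b* had rho of 0.361 and r of 0.484 (adjusted p of 0.546 and 0.107). The lung of CC059 had the most *Cox7a1* and *Cox8b*. Its brown fat list was the highest, at 130 CPM, and its cardiac list the second highest, at 1110 CPM. The 3 muscle isoforms correlated with each other over lungs at rho of 0.73 to 0.77, and each with *Cox4i2* at 0.04 to 0.10, as a description. The skeletal muscle list summed to between 9.47 and 1520 CPM in lung, with a median of 63 CPM. The lungs highest in *Cox6a2*, CC040 and CC042, held places 1 and 3 on that list and 16 and 20 on the cardiac list. CC045 and CC059 came next, at places 23 and 4 on the skeletal muscle list and 4 and 2 on the cardiac list. The part of cardiac muscle, skeletal muscle or brown fat in the lung levels was not tested.

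*Cox4i2* in lung stood beside genes of pericytes, the cells wrapped around small vessels. *Higd1b* had 4.37, 9.03 and 17.7 CPM at its lowest, median and highest in lung and a median of 0 CPM in liver, and *Notch3*, a receptor of vascular mural cells, had a median of 105 CPM in lung against 4.97 CPM in liver and 16.8 CPM in kidney. *Cspg4*, another pericyte gene, had a median of 36.6 CPM in kidney and 31.6 CPM in lung, and *Pdgfrb* had a median of 1.09 CPM in lung. Of 6 listed genes tested, 5 were called higher in lung than in liver, against 31% of all genes. *Rgs5* was called higher in liver, at 2.19 for liver minus lung, against 23.9% of all genes. The list as a whole was thus not particular to lung. Across lungs *Cox4i2* had rho of 0.462 and r of 0.542 with the list of 10 genes, with permutation p of 0.00126 and 9e-05 and adjusted p of 0.219 and 0.130, and it passed neither test.

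In kidney the brown fat list varied most: it summed to between 1.29 and 569 CPM with a median of 25.4 CPM, and 7 of its 8 genes had a median above 3 counts. *Ucp1*, which uncouples respiration in brown fat, had a lowest, median and highest level of 0, 17.1 and 427 CPM, and *Cidea*, a lipid droplet gene, 0, 4.4 and 89.0 CPM. *Cox8b* followed the brown fat list across kidneys with rho of 0.958 and r of 0.968 (permutation p = 1e-05, adjusted p of 0.00337 and 0.00225), the third highest rho of 12127 genes, of which 0.503% passed. Without CC004 and CC059 r was 0.960. *Cox8b* also passed with the white fat list, with rho of 0.851, where 0.602% of genes passed. *Cox7a1* followed the brown fat list with rho of 0.567 and r of 0.653 (adjusted p of 0.0113 and 0.00225), and rho was 0.499 with an adjusted p of 0.167 without the strains CC006, CC031, CC038 and CC059. *Cox6a2* did not follow it, with rho of -0.176 and an adjusted p of 1.0.

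The same 3 kidneys headed the levels of *Cox8b* and *Cox7a1*. In the kidney of CC059 *Cox8b* reached 42.8 CPM and *Cox7a1* 25.2 CPM, and its summed brown fat list was the highest, at 569 CPM. In that of CC038 they reached 38 and 21.6 CPM beside a list of 387 CPM, and in that of CC028 they reached 20.2 and 15.5 CPM beside 267 CPM. The 3 kidneys with the most *Cox6a2* were others: CC068 with 7.52 CPM, CC046 with 6.07 CPM and CC040 with 5.04 CPM, whose brown fat lists were at 1.96, 7.09 and 10.7 CPM. The part of brown fat in the kidney levels was not tested.

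Of the 47 livers, 9 had at most 3 counts of *Cox7a1*, against 30 for *Cox8b*, 31 for *Cox6a2* and 38 for *Cox4i2*. The liver of CC031 had the most *Cox7a1*, *Cox6a2* and *Cox8b*, at 23, 19.3 and 17.4 CPM, and it also had the highest skeletal muscle list, at 3930 CPM against a median of 13.6 CPM. The liver of CC006 came second for *Cox8b* and *Cox7a1*, at 8.22 and 6.16 CPM, and it had the highest *Ucp1*, at 72.7 CPM, and a skeletal muscle list of 3.55 CPM. Its summed brown fat list was at 659 CPM, place 31 of 47. In liver that sum was made largely of *Cpn2* and *Elovl3*, with medians of 523 and 183 CPM against 736 CPM for the list. *Cpn2* and *Elovl3* were highest in other livers, whereas *Cidea* and *Kcnk3* were highest in the CC006 liver, at 14.2 and 85.9 CPM. *Cox8b* had rho of 0.495 with the brown fat list over livers at an adjusted p of 0.274, and no member passed with it there. Over livers *Cox6a2* had rho of 0.840 and r of 0.894 with the skeletal muscle list and *Cox8b* rho of 0.694 and r of 0.759 (permutation p = 1e-05, adjusted p of at most 0.00192), where 0.973% of all genes passed. Without CC012 and CC031 r was 0.860 and 0.693. These correlations include 31 and 30 livers with at most 3 counts of the gene, so the order is set by the remaining livers. *Cox6a2*, *Cox8b* and *Cox7a1* also passed with the cardiac list over livers, with rho of 0.722, 0.645 and 0.505 (1.21% of all genes passed), and *Cox6a2* with the smooth muscle list, with rho of 0.630 (0.808%). In liver 1 of the 18 cardiac genes had a median above 3 counts. The livers of CC031 and CC041 were the 2 highest on both the cardiac and the skeletal muscle list. The part of muscle in the liver levels was not tested.

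**Figure D4:**
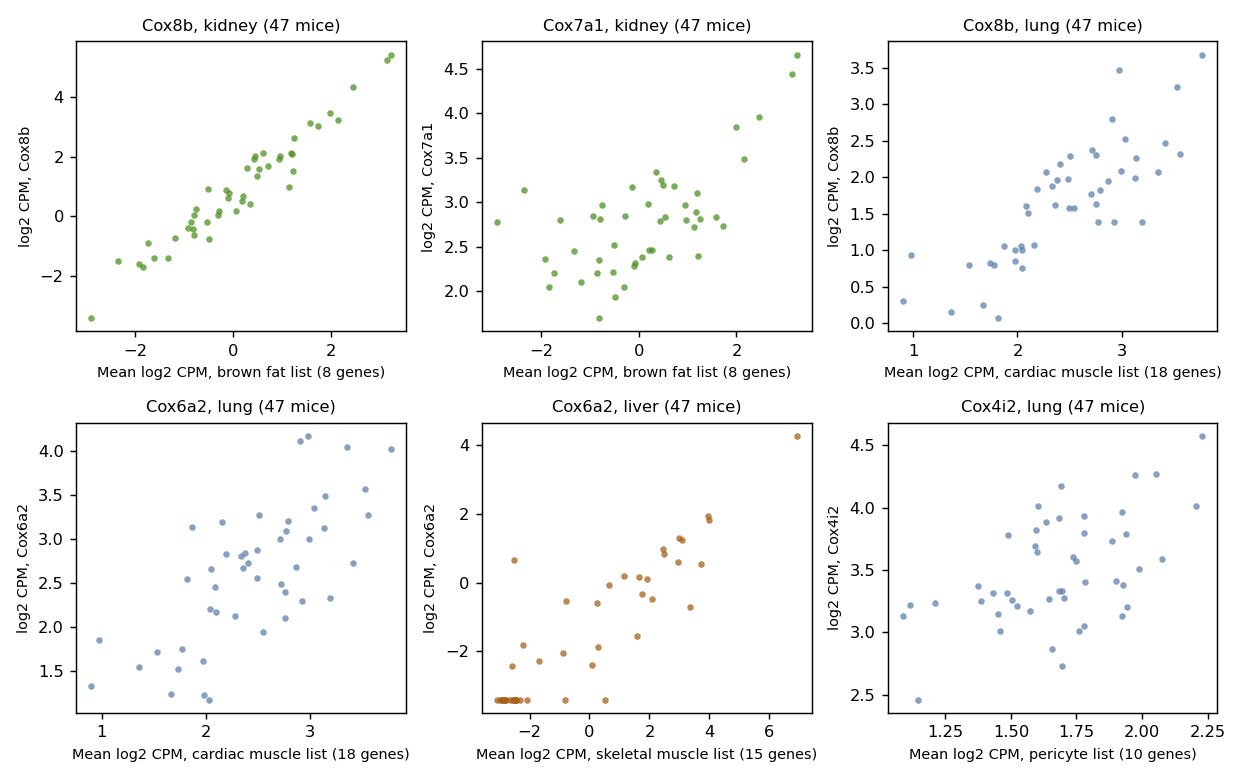
Level of a restricted isoform in log2 CPM against the mean log2 CPM of a marker list, 1 point for each of 47 mice. *Cox8b* follows the brown fat list over kidneys at rho 0.958 and the cardiac list over lungs at rho 0.819, *Cox6a2* follows the skeletal muscle list over livers that have counts, and *Cox4i2* and the pericyte list form a looser cloud at rho 0.462.

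The genes whose values ranked most like those of each isoform were taken from the tissue where its median TPM was highest, among genes above a median of 1 CPM, as a description over 47 libraries. For *Cox8b* in lung these were *Slc2a4*, the insulin-responsive glucose transporter, at rho of 0.858, *Tcap*, a sarcomere protein, at 0.844, *Srl* at 0.823, *Phkg1*, the muscle phosphorylase kinase, at 0.817, and *Slc25a4*, the muscle ADP/ATP carrier, at 0.804. For *Cox6a2* in lung they were *Hrc* at 0.784, *Trim72* and *Srl*, both at 0.762, *Ckmt2*, the mitochondrial creatine kinase of muscle, at 0.751 and *Alpk3* at 0.747. For *Cox7a1* in kidney they were *Agpat2*, an enzyme of triglyceride synthesis, at 0.670, *Cs*, citrate synthase, at 0.669, *Acaca*, which makes malonyl-CoA, at 0.634, *Pygl* at 0.632 and *Thrsp* at 0.610. For *Cox4i2* in lung the likeness was lower, led by *Ccm2l* at 0.570, *Rhoj* at 0.565 and *Tgm2* at 0.516, then *Map3k4* at 0.515 and *Rasl12* at 0.494. For *Cox7c* in kidney it was lower again, with *Mogat2* at 0.504, *Car5a* at 0.500, *Slc16a11* at 0.483, *Scn4b* at 0.466 and *Ppif* at 0.462.

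Spread between strains differed widely among the genes. For *Cox6a1* the SD of log2 CPM over 47 mice was 0.220 in livers, 0.298 in lung and 0.260 in kidney, and for *Cox5a*, *Cox5b* and *Cox7a2* it lay between 0.251 and 0.383. Over all genes the median SD was 0.524, 0.376 and 0.412 in these tissues. In liver the SD of *Cox6a1* was smaller than that of 91.7% of genes. *Cox7c* was at the other end, with SDs of 2.92, 2.23 and 2.86, and 0.305%, 0.297% and 0.066% of genes had a larger SD. *Cox8b* in kidney had an SD of 1.83 and a coefficient of variation of 190% in CPM, and 0.651% of genes had a larger SD, whereas *Cox7a1* in kidney had an SD of 0.604. *Cox4i2* in lung, at 0.430, was close to the median gene. Pairs of common subunits also moved together within a tissue as a description: rho of *Cox5b* with *Cox6a1* was 0.76 in livers, 0.61 in lung and 0.78 in kidney.

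Whether a strain that was high in one tissue was also high in another was tested by permutation over strains for all 12127 genes, with Pearson's r on rank-normalized values. At an adjusted p of 0.1, 10.9% of genes passed between liver and lung, 18.7% between kidney and liver and 16.2% between kidney and lung. Among the 10 subunit genes, *Cox7c* passed in all 3 pairs of tissues and no other gene passed in any. For the other 9 genes r lay between -0.134 and 0.287 over 27 relations, and the lowest adjusted p was 0.186, for *Cox7a2* in liver and kidney, where r was 0.287 and Spearman's rho 0.232 (permutation p = 0.0506 and 0.117), and r was 0.207 without CC004 and CC006. The median r of all genes was 0.116, 0.155 and 0.141 in the same order. For *Cox7c* r was 0.789 between liver and lung, 0.873 between kidney and liver and 0.836 between kidney and lung, and Spearman's rho was 0.812, 0.902 and 0.843, each with a permutation p of 1e-05 and an adjusted p of at most 8.25e-04. With the 2 most distant strains left out, r was 0.792, 0.859 and 0.806. Its values were uneven, with 12 livers, 17 lungs and 11 kidneys at no more than 3 counts. Only 28.5% of the 50-base stretches of its transcript had no exact copy elsewhere in the genome, as described below. Whether bases that differ between strains changed how much of it could be counted was not tested. The strain CC039 had the most *Cox7c* in all 3 tissues, at 116, 13.9 and 86.4 CPM in liver, lung and kidney.

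Reads were kept where they matched a single place, so copies of a gene elsewhere in the genome could limit how much of it was counted. How far they did so was not tested. Windows of 50 bases, the read length, were cut from 1 GENCODE transcript per gene and searched on both strands of NCBIM37. No window of *Cox4i1*, *Cox4i2*, *Cox6a2*, *Cox7a1* or *Cox8b* had an exact copy elsewhere. Of the windows of *Cox5a*, *Cox7a2* and *Cox6a1*, 96.9%, 95.6% and 87.7% had no copy. For *Cox5b* it was 37.3%, and for *Cox7c* 28.5%.

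*Cox7c* lies at chr13:86184421-86186509 on the reverse strand of NCBIM37. Its copies lay at 7 places, the longest being chr11:75413148-75413547 on the reverse strand, which shared 351 of the 491 windows and is annotated as the pseudogene Gm12338 within an intron of *Pitpna*. None of the 143 coding windows of *Cox7c* was free of a copy, and of the 140 windows that were free 138 lay ahead of the coding start and 2 at the transcript's end. *Cox5b* lies at chr1:36748332-36750230 on the forward strand, and its copies lay at 3 places, the longest being chr13:21592846-21593318 on the reverse strand, annotated as the gene Gm11273. The coding sequences show the difference, with capitals for bases covered by a coding window without a copy: *Cox7c*, whole, has none, and the first 300 of the 390 coding bases of *Cox5b* have 198.
Cox7c: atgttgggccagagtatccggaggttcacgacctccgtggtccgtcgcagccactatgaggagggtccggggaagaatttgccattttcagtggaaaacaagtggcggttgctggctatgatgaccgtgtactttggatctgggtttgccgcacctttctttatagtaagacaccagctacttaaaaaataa
Cox5b: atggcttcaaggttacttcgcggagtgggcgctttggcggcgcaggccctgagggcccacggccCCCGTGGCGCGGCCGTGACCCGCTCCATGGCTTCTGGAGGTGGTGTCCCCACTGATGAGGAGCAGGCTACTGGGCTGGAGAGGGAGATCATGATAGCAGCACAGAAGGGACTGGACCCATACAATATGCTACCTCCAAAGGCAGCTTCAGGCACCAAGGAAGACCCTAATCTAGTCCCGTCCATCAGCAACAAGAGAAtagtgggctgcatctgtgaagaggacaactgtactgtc

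Levels and these shares did not run in parallel. *Cox5b*, with 37.3% of windows free of copies, had a median of 472 TPM in liver, whereas *Cox7c*, with 28.5%, had 22.95 TPM. Counted per 1000 windows free of copies, the median level in liver, in CPM from total counts, was 537 for *Cox5b*, 255 for *Cox6a1* and 21.8 for *Cox7c*. The files list a length of 449 bases for *Cox7c* against 540 bases of the transcript searched, so the transcript counted by the authors was not the one searched. The search used the reference genome, and the bases by which each strain differs from it were not analysed here.

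*Cox4i1* had no copied window, yet it was counted at a median of 4.1 per 1000 windows in liver on the same scale. It is the one gene of the 10 with more than 1 transcript named in the files. Over all genes the median level was lower for genes with more than 1 transcript, at 0.03 TPM for 6112 genes against 0.31 TPM for 18311 genes in liver. Among subunit and assembly genes, the 6 with more than 1 transcript had medians between 0 and 8.37 TPM in liver, 2 of them at 0. The 39 with 1 transcript had medians between 0 and 922 TPM there, 4 of them at 0. Whether the number of transcripts set the level of *Cox4i1* was not tested.

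**Figure D5:**
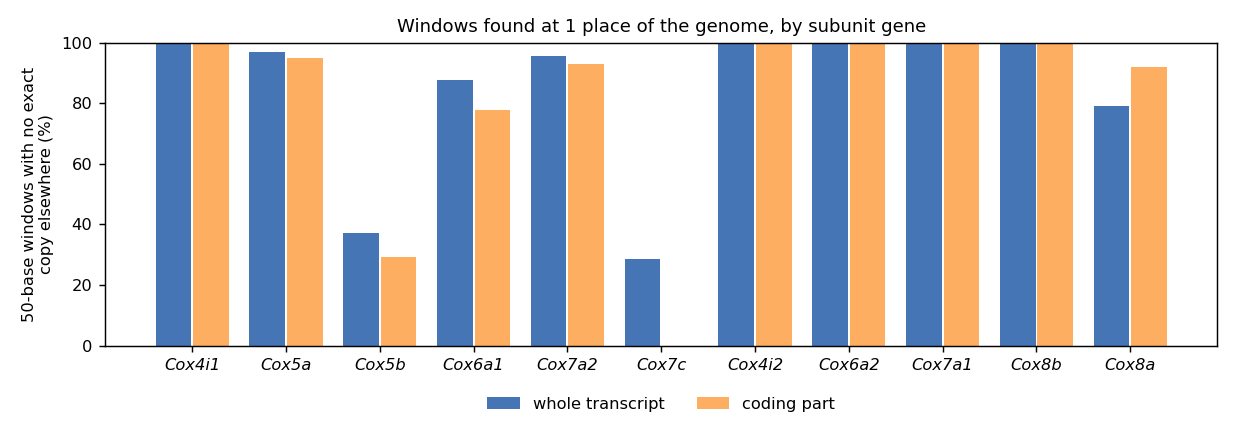
Percent of 50-base windows with no exact copy elsewhere in NCBIM37, in blue over the whole transcript and in orange over its coding part. The 4 restricted isoforms and *Cox4i1* reach 100% in both, *Cox5b* stands at 37.3% and 29.3%, and *Cox7c* at 28.5% with no coding window free of a copy.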

How the data were processed

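RNA was sequenced from liver, lung and kidney of 47 Collaborative Cross strains, 1 mouse per strain, as ribosomal-depleted total RNA. The authors aligned 50-base single-end reads to strain pseudo-genomes (Build37) with STAR 2.5.3a, kept unique alignments and quantified RefSeq genes with RSEM; the deposited files hold expected counts, TPM and FPKM (not used). Replicates were not pooled. Expected counts were rounded (25 were not whole). Genes above 1 CPM in 30% of libraries (12127) were fitted with limma-voom (limma 3.58.1, edgeR 4.0.16, TMM), with tissue and strain as terms. Strain is the replicate block, since the 3 organs came from 1 mouse: the median correlation of deviations was 0.166 to 0.211 for organs of the same mouse and near 0 for other mice. A gene was called at a Benjamini-Hochberg adjusted p of at most 0.1 and a log2 fold change of at least 1 in size. On simulated data all 100 genes changed 2-fold and all 100 changed 4-fold were recovered by adjusted p, with no fold required, among 12127 genes simulated for liver and lung. The simulation drew every tissue from mean liver levels, with no shift of composition between tissues. It changed only genes above a minimum liver level and gave all genes the same strain spread. It therefore does not cover the choice of scale, isoforms near the floor or genes as uneven as *Cox7c*. Correlations used 100000 permutations. Labels give no batch, so none was tested. The members, gene lists and tests were chosen with earlier results of these data known. Named genes were the members, the 3 largest differences of each list and the 5 genes most alike to each restricted isoform and *Cox7c*. Differences of a list that were not called, and the single marker genes, were named after their values were seen. Alternatives were other normalizations, filters, tests, TPM scales and omitted strains. A count of 3 was taken as the floor, a median of 0.56, 0.222 and 0.336 CPM in liver, lung and kidney, for counting error only.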

Additional observations from a re-analysis of the deposited data

How the results depend on the processing

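The calls depended on scaling in all 3 comparisons. Members past the threshold for liver against lung numbered 10, and 6 with total counts, with log2(TPM + 1) and with log2(TPM + 0.1). For liver against kidney they numbered 3, and 9 with total counts, 8 with log2(TPM + 1), 9 with log2(TPM + 0.1) and 8 with no fold required. For lung against kidney they numbered 8, and 9 with total counts and both TPM scales, *Cox8b* being added. Of all calls, 43.5%, 42.9% and 55.2% were higher in the first tissue for liver against lung, liver against kidney and lung against kidney, against 13.7%, 14.5% and 68.7% with total counts, 12.6%, 16.3% and 70.5% with log2(TPM + 1), and 57.5% for liver against lung with no low-count filter. The log2 fold change of *Cox7c* for liver minus kidney, 0.03, became -0.07 with DESeq2 size factors, with DESeq2 and without CC006, CC031, CC038 and CC059, -0.02 with no low-count filter, -0.89 with total counts, -0.84 with log2(TPM + 1) and -0.98 with log2(TPM + 0.1). That of *Cox8b* for lung minus kidney became -0.09 with the 2 tissues alone. Without the replicate block the members past the threshold numbered 10, 3 and 8, as with it. The causes were not tested.

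Leaving out those 4 strains was not planned beforehand, and they hold the highest *Cox8b* levels of liver and kidney. Without them the share of *Cox8b* differed by -1.19 percentage points between liver and kidney, and *Cox7a1* had rho of 0.499 with brown fat in kidney. With log2(TPM + 1), *Cox4i2* had rho of 0.674 with pericyte genes in lung and *Cox7a1* 0.495 with skeletal muscle genes in liver, and both passed. With TPM without TMM 2 members passed between liver and kidney, *Cox4i1* joining *Cox7c*. Values of r near 0 changed sign: without the 2 farthest strains, *Cox4i1* (-0.0833) and *Cox7a2* (-0.0596) in liver and lung, *Cox4i1* (-0.0225) and *Cox7a1* (0.0809) in liver and kidney, and *Cox7a1* (-0.101) in lung and kidney; with TPM without TMM, *Cox7a2* (-0.101), *Cox4i2* (0.0404) and *Cox8b* (-0.0655) in liver and lung and *Cox8b* (-0.0034) in liver and kidney; and without CC032 and CC042, *Cox7a1* (0.00735) in liver and kidney. The low counts of *Cox4i1*, and of the restricted isoforms in liver, limit these values.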
